A study of Mus musculus with 6 samples.

Results

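Of 18708 p65 peaks called in mouse epidermal cells across 3 peak lists, 2688 had a noncoding gene as their nearest gene. A peak belonged to this set when the annotated start nearest to its midpoint was that of a gene that makes no protein, among the curated RefSeq transcripts of the mm10 genome. The set held 1189 of 8525 peaks in adult, 618 of 4169 in aged/IgG control and 881 of 6014 in aged/anti-IL-17A/F. Of these, 199, 101 and 151 peaks in that order lay nearest to a microRNA gene, defined as one annotated as a microRNA with a symbol starting with Mir.

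The lists came from chromatin immunoprecipitation of p65 followed by sequencing (ChIP–seq), set up to ask how p65 location changes in aged skin and under IL-17 blockade. Epidermal cells of C57bl/6J mice were freed from skin with trypsin. Adult mice received no treatment, whereas aged mice received intraperitoneal antibodies for 12 weeks from 73 weeks of age, either a control IgG or blocking antibodies against IL-17A and IL-17F. Reads of 4 mice per condition were merged into 1 list, so no difference between conditions has a replicate check and intervals cover counting error only. The aged/IgG control list is called control from here on, and treated stands for aged/anti-IL-17A/F. The whole epidermal suspension was used, so shares of cell types within it and p65 binding per cell cannot be told apart, and no RNA was measured in these samples. All 8525 peaks of the list labelled adult carry the same name prefix as the treated list, which goes against its label. Overlaps with these lists exchanged are given among the alternatives.

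p65, encoded by Rela, is a DNA-binding subunit of NF-κB, a transcription factor that moves to the nucleus when receptors for inflammatory cytokines such as IL-17 are engaged. MicroRNAs are cut from hairpins inside longer primary transcripts and repress messenger RNAs that pair with their seed, so the annotated start of a microRNA gene is the end of its hairpin and not the site where transcription begins. Long noncoding RNAs (lncRNAs) are transcribed from promoters of their own, often back to back with a protein-coding gene.

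Mature sequences show which messages each microRNA can pair with, and microRNAs with the same seed share them. RefSeq sequences were found for 131 of the 145 microRNA genes with a peak in any list. Those below belong to the microRNAs tied to NF-κB or to epidermis that the text describes and to the 3 microRNA genes with the strongest peaks. They are written 5′ to 3′ with the seed, bases 2 to 8, in capitals. The 4 let-7 members share one seed and miR-99a and miR-100 share another, while each of the other sequences has a seed of its own.
miR-146a-5p: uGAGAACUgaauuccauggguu
miR-203-3p: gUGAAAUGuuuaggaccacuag
miR-34a-5p: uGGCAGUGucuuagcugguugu
miR-23a-3p: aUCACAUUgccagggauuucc
miR-29b-3p: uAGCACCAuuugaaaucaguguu
miR-365-3p: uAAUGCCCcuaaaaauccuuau
miR-138-5p: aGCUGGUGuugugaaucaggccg
miR-181c-5p: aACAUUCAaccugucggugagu
miR-17-5p: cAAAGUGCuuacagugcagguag
miR-15a-5p: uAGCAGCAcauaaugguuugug
miR-191-5p: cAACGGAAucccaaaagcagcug
miR-210-3p: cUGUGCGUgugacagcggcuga
miR-193a-3p: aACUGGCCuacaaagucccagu
miR-26a-5p: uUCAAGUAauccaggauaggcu
miR-99a-5p: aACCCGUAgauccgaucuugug
miR-100-5p: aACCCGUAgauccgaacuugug
let-7a-5p: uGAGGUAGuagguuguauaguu
let-7b-5p: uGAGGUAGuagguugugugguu
let-7c-5p: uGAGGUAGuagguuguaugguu
let-7i-5p: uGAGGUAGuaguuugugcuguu
miR-3965: uGCUUAUCagccugauguu
miR-721: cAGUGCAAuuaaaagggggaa
miR-1892: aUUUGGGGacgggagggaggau

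A minority of noncoding peaks held a match to the NF-κB consensus motif near the summit, and the windows below show such matches at genes that the text describes. Each window below holds 60 bases of the mm10 forward strand around the match that lies closest to the summit, with the 10 bases of the match in capitals. The windows come from the strongest motif-bearing region of each gene, in the list where that region was strongest.
Mir146 (chr11:43385218-43385277): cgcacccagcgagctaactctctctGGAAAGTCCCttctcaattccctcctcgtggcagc
Mir34a (chr4:150061611-150061670): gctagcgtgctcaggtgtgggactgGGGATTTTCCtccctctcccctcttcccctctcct
Mir3965 (chr5:134332915-134332974): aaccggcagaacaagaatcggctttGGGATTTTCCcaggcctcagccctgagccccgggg
Mir721 (chr5:136403148-136403207): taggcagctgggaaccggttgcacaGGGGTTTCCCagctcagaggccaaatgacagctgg
Mir1892 (chr12:54568794-54568853): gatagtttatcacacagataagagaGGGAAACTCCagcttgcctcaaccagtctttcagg
Mir3569 (chr7:30589617-30589676): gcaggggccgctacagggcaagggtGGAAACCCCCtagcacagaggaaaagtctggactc
Mir7671 (chr11:53762971-53763030): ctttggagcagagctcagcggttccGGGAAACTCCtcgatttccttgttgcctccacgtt
4831407H17Rik (chr14:30464739-30464798): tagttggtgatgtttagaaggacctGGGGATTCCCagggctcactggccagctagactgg
Gm39859 (chr2:75625316-75625375): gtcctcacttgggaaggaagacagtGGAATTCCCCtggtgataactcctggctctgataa
1700007F19Rik (chr3:58122837-58122896): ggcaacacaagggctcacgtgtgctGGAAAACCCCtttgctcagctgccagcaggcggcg
4930578M01Rik (chr15:98985888-98985947): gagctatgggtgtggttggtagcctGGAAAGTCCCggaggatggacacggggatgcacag
Neat1 (chr19:5841345-5841404): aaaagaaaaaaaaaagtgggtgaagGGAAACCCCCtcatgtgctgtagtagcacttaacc
B230209E15Rik (chr7:61481312-61481371): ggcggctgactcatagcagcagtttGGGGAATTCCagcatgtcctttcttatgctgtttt
Serpina3h (chr12:104247690-104247749): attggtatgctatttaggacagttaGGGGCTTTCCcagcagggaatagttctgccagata
Snord83b (chr15:80061343-80061402): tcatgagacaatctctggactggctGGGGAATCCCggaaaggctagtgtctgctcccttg
Rmrp (chr4:43492958-43493017): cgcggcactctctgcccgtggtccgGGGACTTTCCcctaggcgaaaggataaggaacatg
Of these 16 windows 12 hold the summit itself and 4 lie beside it, and the centre of the match lay between -54 and 71 bp of the summit. Mir146 and 4930578M01Rik held the same 10 bases. Mir34a and Mir3965 also shared a match, as did Mir1892 with Mir7671 and Mir3569 with Neat1.

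lncRNAs accounted for most noncoding peaks. They held 931 of 1189 peaks in adult (78.3%), 487 of 618 in control (78.8%) and 682 of 881 in treated (77.4%), at 609, 366 and 501 genes. microRNA genes held 16.7%, 16.3% and 17.1% of noncoding peaks, at 130, 77 and 101 genes. Pseudogenes had 41, 19 and 33 peaks, and the remaining small RNAs, among them small nucleolar RNAs and the RNA parts of telomerase and of the RNase MRP and RNase P enzymes, had 18, 11 and 15. With predicted transcripts added to the annotation, microRNA genes held 5.11%, 5.30% and 5.08% of noncoding peaks, pseudogenes went from 3.45%, 3.07% and 3.75% to 1.37%, 1.24% and 1.501%, and the remaining RNAs from 1.51%, 1.78% and 1.70% to 6.22%, 6.29% and 6.00%. The makeup of the 3 lists was thus alike to within a few percentage points.

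Noncoding genes made up 13.9% of the adult list (95% Wilson interval 13.2 to 14.7), 14.8% of the control list (13.8 to 15.9) and 14.6% of the treated list (13.8 to 15.6). These intervals overlap. With predicted transcripts added the shares were 27.3%, 29.0% and 28.8%. Over all lists, 868 of 5180 annotated noncoding genes had a peak (16.8%), against 5275 of 21000 protein-coding genes (25.1%). By kind, 20.3% of lncRNA genes, 12.3% of microRNA genes and 7.76% of pseudogenes had at least 1 peak.

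Noncoding peaks were about as strong as the rest. Fold enrichment is the ratio that MACS2, the peak caller, gives for the pileup of reads at the summit over the local background. Its median was 3.64 at noncoding genes and 3.58 at protein-coding genes in adult, 3.85 and 3.79 in control, and 3.74 and 3.67 in treated. Noncoding values ran from 2.004 to 20.4 in adult, from 2.02 to 18.3 in control and from 2.05 to 16.7 in treated.

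The position of the peaks set noncoding and protein-coding genes apart. Within 1 kb of the nearest start lay 212 of 1189 noncoding peaks in adult (17.8%, 15.8 to 20.1), against 2934 of 7336 protein-coding peaks (39.99%, 38.9 to 41.1). The corresponding shares were 18.1% and 35.8% in control and 16.3% and 36.7% in treated. Beyond 50 kb lay 22.5%, 22.8% and 23.8% of noncoding peaks and 11.4%, 12.8% and 12.4% of protein-coding peaks. In every list the Wilson intervals of noncoding and protein-coding peaks were apart in both of these ranges, and no test was run on these counts. Starts of noncoding genes are sparser in the annotation, with 5180 noncoding against 21000 protein-coding genes, and how far that sets these distances was not tested.

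**Figure D1:**
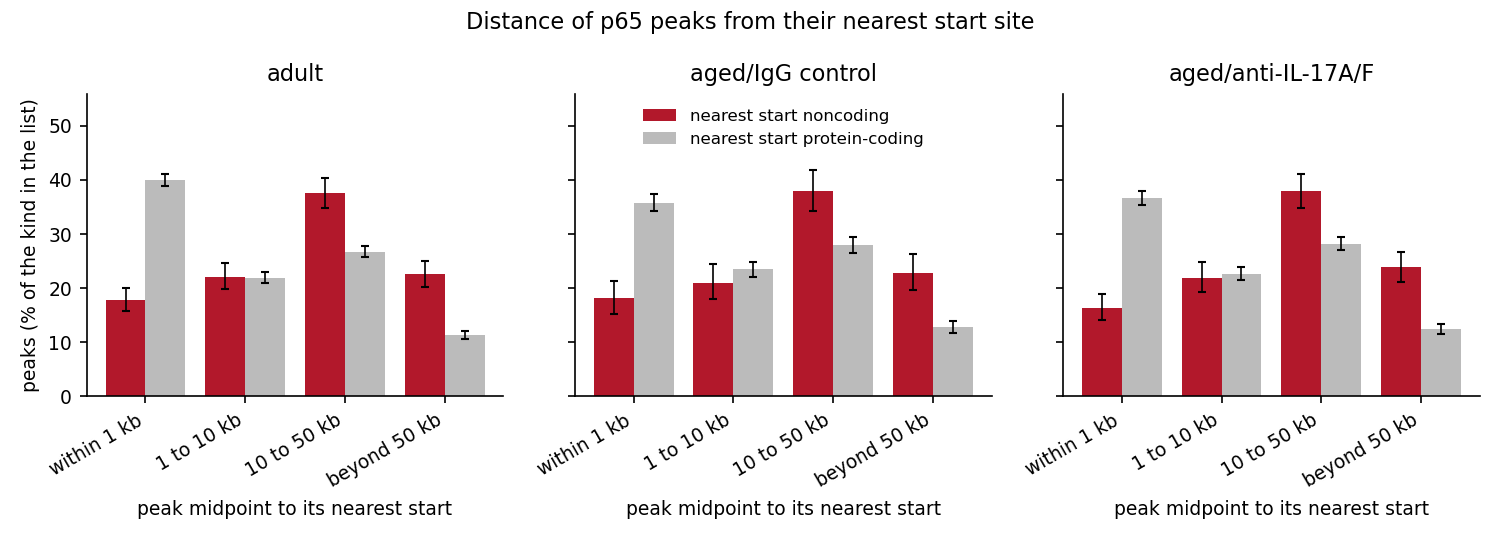
Share of peaks in each range of distance from the nearest annotated start, as percent of noncoding (red) or protein-coding (grey) peaks of each list, with 95% Wilson intervals as error bars. Within 1 kb, noncoding peaks reach 17.8%, 18.1% and 16.3%, and protein-coding peaks 39.99%, 35.8% and 36.7%, and beyond 50 kb the order turns around.

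The median noncoding peak lay 16613 bp from its noncoding start in adult, 17434.5 bp in control and 17853 bp in treated. The nearest protein-coding start, which the assignment places farther away for every noncoding peak, lay at a median of 55185, 54729 and 56049 bp. Peaks at microRNA genes were closer to their hairpins, at 9901, 10806 and 12047 bp. Measured by place, 55.3%, 55.3% and 55.8% of noncoding peaks were intergenic and 21.4%, 21.8% and 22.02% were in introns of protein-coding genes.

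Where a noncoding start did carry a peak, a protein-coding start was often beside it. Of the noncoding peaks within 1 kb of their own start, 89 of 212 in adult (42.0%, 35.5 to 48.7), 47 of 112 in control (42.0%, 33.2 to 51.2) and 62 of 144 in treated (43.1%, 35.3 to 51.2) were also within 1 kb of a protein-coding start. The noncoding gene and its neighbour were on opposite strands in 84 of these 89 pairs, 42 of 47 and 57 of 62. At such paired starts a peak cannot be assigned to one gene rather than the other. Rmrp, the RNA of the RNase MRP enzyme, is one of them. On chromosome 4, the midpoint of its adult peak lies 110 bp inside Rmrp and at -416 bp of the protein-coding Ccdc107. The Rmrp peak had a fold enrichment of 7.53 in adult, 4.12 in control and 6.21 in treated, and its motif match is printed above.

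Many microRNA peaks belonged to the body of a protein-coding gene rather than to a microRNA locus of its own. The hairpin sat inside a protein-coding gene for 90 of 130 microRNA genes with a peak in adult (69.2%), 54 of 77 in control (70.1%) and 69 of 101 in treated (68.3%). The peak itself lay inside that same host for 100 of 199 (50.3%), 53 of 101 (52.5%) and 75 of 151 (49.7%) microRNA peaks. Only 13, 8 and 9 peaks overlapped a hairpin. Over the 145 microRNA genes with a peak in any list, 86 had one within 10 kb of the hairpin in at least 1 list and 34 in all 3 lists. Within 1 kb these numbers were 26 and 15.

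Mir203 had p65 peaks close to its hairpin in all lists. miR-203 is abundant in the differentiating layers of the epidermis, where it represses the stem cell factor p63. Its hairpin lies at chr12:112130880-112130955 on the forward strand of mm10. Distances here carry a minus sign where the peak midpoint lies upstream. The strongest region, chr12:112128276-112129904, reached a fold enrichment of 6.70 at -1803 bp in adult, 6.48 at -1528 bp in control and 7.97 at -1717 bp in treated. A second region next to the hairpin had 5.17 at -410 bp, 3.21 at -197 bp and 5.14 at -330 bp. A further one, in an intron of Aspg, had 4.43 at -4726 bp, 2.67 at -4709 bp and 2.85 at -4757 bp. Each of the 3 regions was thus called in every list, and in all of them the control value was the lowest. The share of all shared regions with such an order of lists is not given, here or below. The order thus cannot be called particular to the genes named. None of the 3 Mir203 regions held the motif within 100 bp of the summit.

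Mir146 had 1 peak in each list, and it was among the strongest. miR-146a is known as an NF-κB target that dampens signalling from Toll-like and IL-1 receptors. The peak at chr11:43385014-43385737 lay upstream of the hairpin at chr11:43374397-43374461, on the reverse strand, with its midpoint at -10922 bp in adult, -10873 bp in control and -10899 bp in treated. Fold enrichment was 7.64 in adult, 9.74 in control and 8.56 in treated, with a −log10 q-value of 71.9, 85.5 and 76.6. The peak stood at percentile 91.7, 97.2 and 94.6 of its list, and the control value was the highest, both as fold and as rank. The motif was within 100 bp of the summit in all lists.

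Other microRNAs of the epidermis had weaker peaks upstream. Mir34a, a target of p53 that slows the cell cycle, had a region with 4.70 in adult, 2.95 in control and 3.68 in treated at -6699, -6614 and -6631 bp. A neighbouring region had 4.03, 2.47 and 3.21 in the same order. At the cluster of Mir23a, Mir27a and Mir24-2 the strongest region had 5.14, 3.99 and 4.73 at -10480 bp in adult, -10806 bp in control and -10745 bp in treated. The adult summit of that region lay 761 bp from the control summit and 743 bp from the treated one, so its values belong to different sites. In both Mir34a regions the adult value was the highest and the control value the lowest. Another Mir34a region, downstream, had 2.91 at 7100 bp in adult and 3.27 at 7011 bp in control and no peak in treated. Mir23a had a further region at -7039 bp in adult with 3.58, 3.002 and 2.79, again with summits up to 591 bp apart, and nearer to the hairpin one with 4.49 at -4500 bp in adult and 3.40 at -4448 bp in treated and no peak in control. The peak closest to Mir183, Mir96 and Mir182, a cluster expressed in epithelia, was assigned to their host lncRNA Mirc35hg and had 5.24, 3.41 and 3.76. The Mir22 host gene Mir22hg carried a peak at its own promoter with 5.87, 3.97 and 4.26 at -408, -355 and -380 bp.

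**Figure D2:**
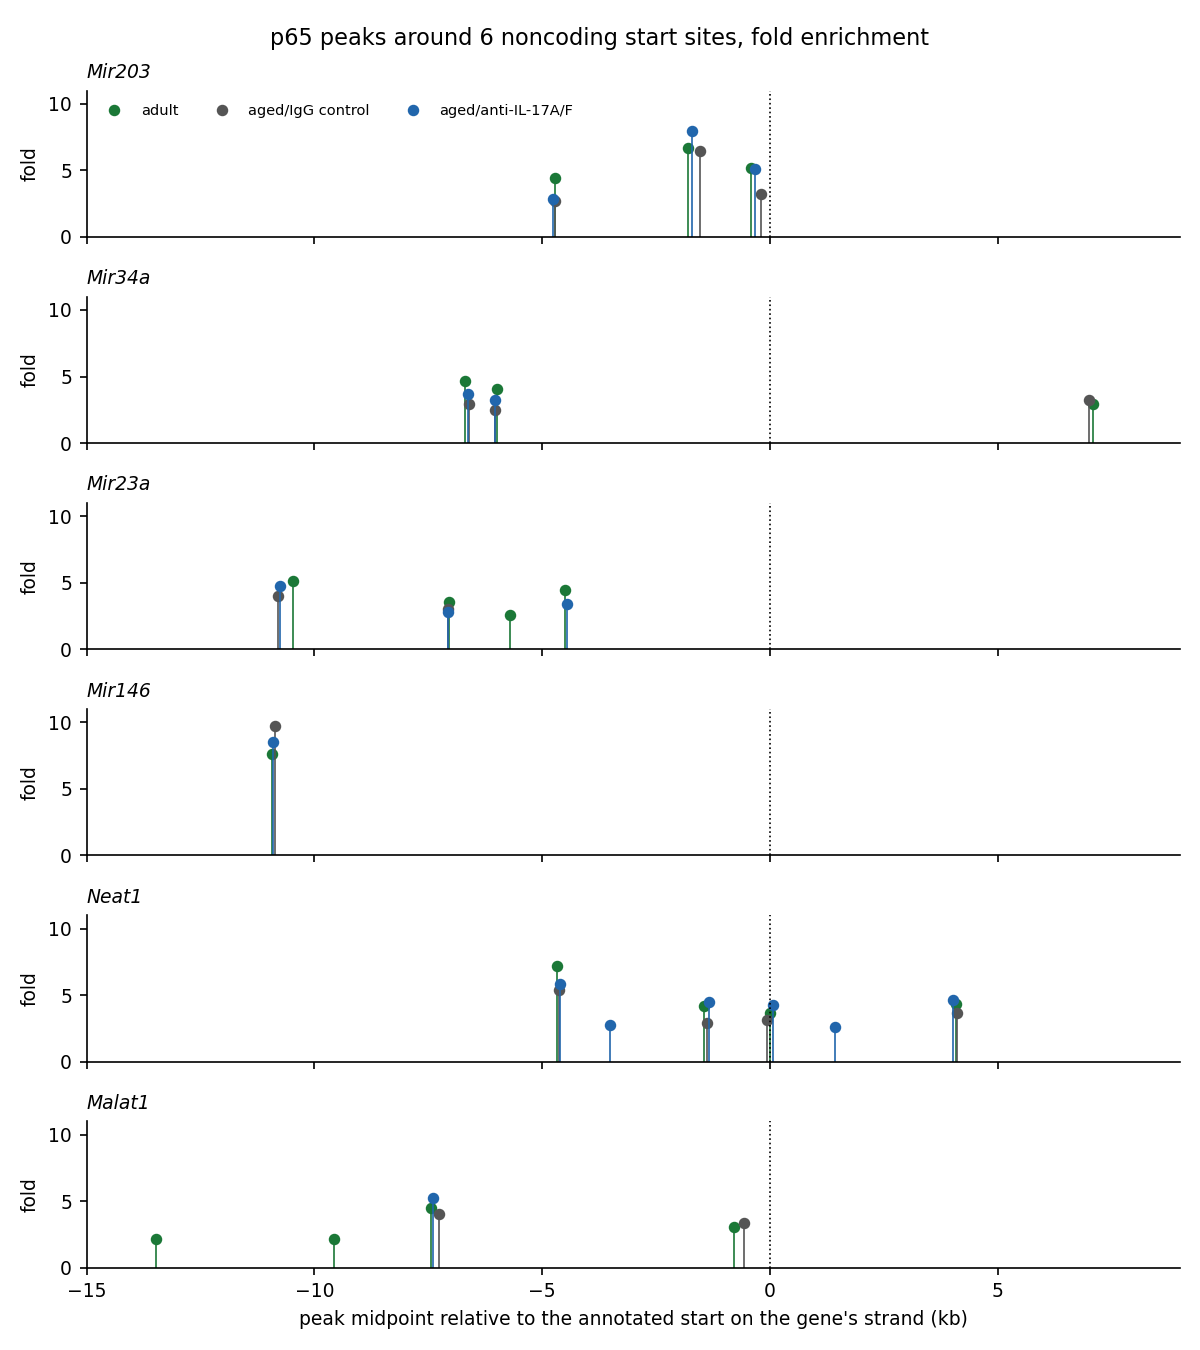
Fold enrichment (vertical axis) of each peak against the distance of its midpoint from the annotated start (kb, upstream to the left) for Mir203, Mir34a, Mir23a, Mir146, Neat1 and Malat1. Each point is 1 peak of the adult (green), control (grey) or treated (blue) list, the dotted line is the start, and only Mir146 has a single region.

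Several microRNA hairpins lay at the promoter of a protein-coding gene, and the peak was there. Mir8105 had 8.60 in adult, 3.12 in control and 6.44 in treated, with Smarcc2, a chromatin remodeller subunit, starting close by. In control the same region held a stronger second peak, with 4.12, that was assigned to Smarcc2 itself. Mir3569 had 7.36, 4.44 and 4.93 near the start of Kmt2b, a histone methyltransferase. Mir688 had 6.58, 3.91 and 5.58 near Atp5g2, a subunit of the mitochondrial ATP synthase. The adult peaks were at -440, -680 and -809 bp of these coding starts and cannot be ascribed to the hairpin. Adult was the highest and control the lowest at all 3. Mir7671 lies upstream of Irf1, which encodes an interferon regulatory factor. Its peak had 5.47, 4.78 and 6.06, with treated the highest.

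Several microRNA genes were reached by peaks within introns or exons of their hosts. Mir7014 in Ecm1, an extracellular matrix gene of skin, had 5.84 in adult, 5.40 in control and 8.67 in treated. Mir6933 in Pgs1 had 11.4, 7.82 and 7.83. Mir7118 in Plxnb2, a semaphorin receptor, had 9.78, 5.03 and 6.87, so the order of the lists differed from host to host. Mir3109 in Anxa2, which encodes annexin A2, was nearest to 5 peaks in adult, 4 in control and 4 in treated. The strongest within 10 kb had 6.56, 4.79 and 5.21 at 1237, 1253 and 1186 bp, and a farther one, outside Anxa2, had 5.42, 5.05 and 7.35 at 40037, 40055 and 40063 bp. Mir7239, which has no host and an intergenic peak with 7.65, 4.80 and 6.40, and Mir6934 in Tbc1d16, with 6.92, 4.23 and 5.84, complete the 12 microRNA genes with the highest mean fold enrichment within 10 kb in all lists, together with Mir203 and Mir3965.

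The 3 strongest microRNA regions belonged to Mir721, Mir3965 and Mir1892. Mir721 lies in an intron of Cux1, and its strongest region at chr5:136402553-136403664 had 20.4 in adult, 13.9 in control and 10.7 in treated at -27307 bp in adult. Mir3965 had 14.6, 18.3 and 14.8 at 6577 bp in adult. Mir1892 had 13.6, 15.1 and 16.3 at 77176 bp in adult. Each was chosen as the strongest microRNA peak of a list, and all stood at or above percentile 97.4 of every list. All 3 held the motif in every list.

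**Figure D3:**
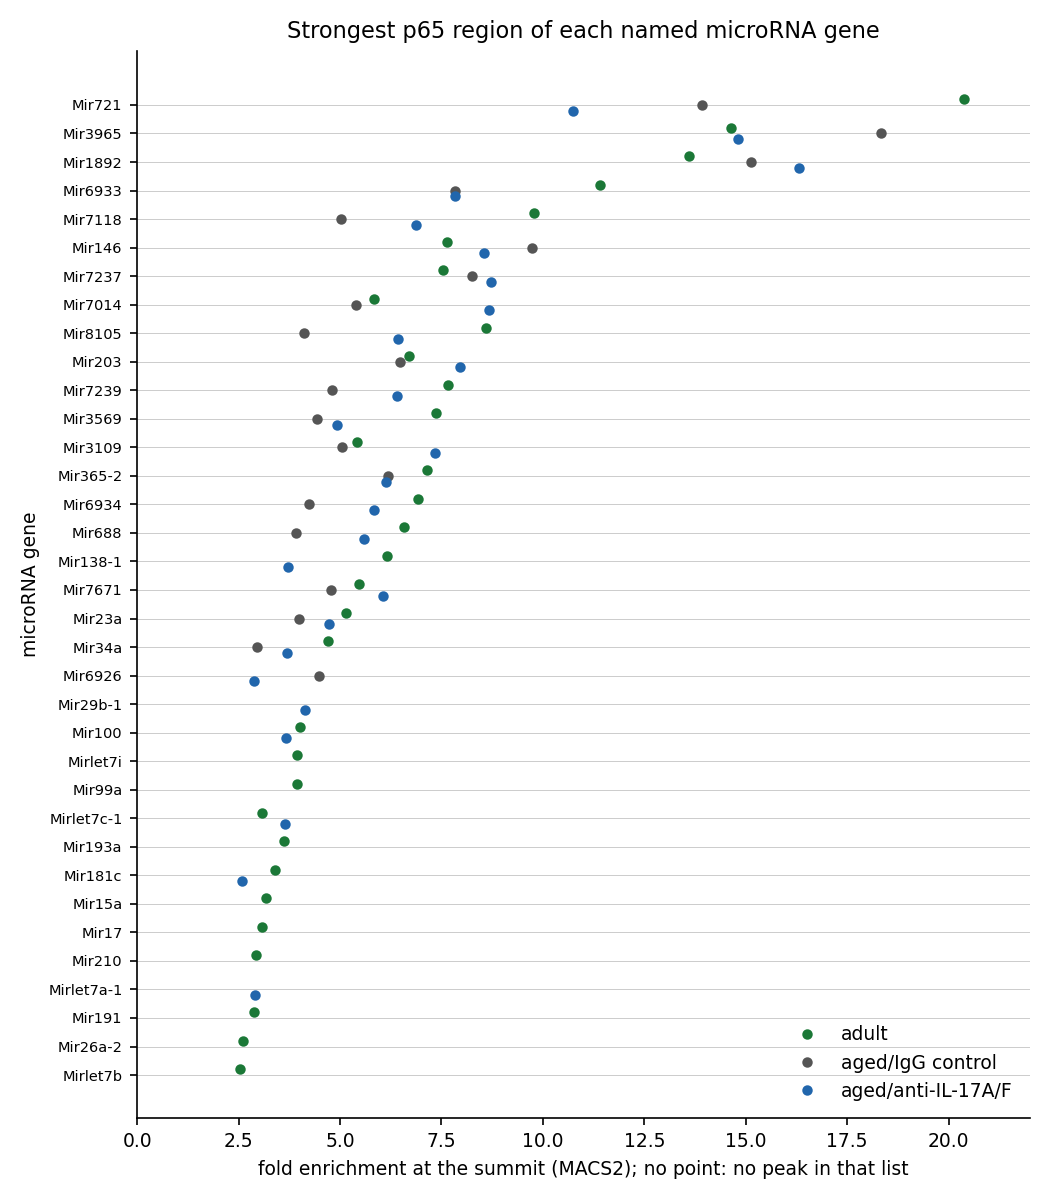
Fold enrichment (horizontal axis) of the strongest region of each named microRNA gene (vertical axis), with 1 point per list in which the region has a peak. Mir721, Mir3965 and Mir1892 lie above 10 in all lists, and from Mir29b-1 downward no gene has a point for control. Some of these, such as Mir29b-1 and Mirlet7i, have a control peak in another region that is not shown.

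Among 51 annotated microRNAs tied to NF-κB, 7 were the nearest gene of a peak in at least 1 list (6 in adult, 2 in control and 4 in treated). Among 45 microRNAs of epidermis, 13 were (13, 5 and 8). As a share of the annotated genes these are 13.7% and 28.9%, next to 12.3% for all microRNA genes. Within 10 kb of the hairpin the NF-κB list had 2, 0 and 2 members with such a peak, and the epidermal list 11, 4 and 6, next to 77, 41 and 54 of all 1180 microRNA genes. Peaks at any gene were also set against the hairpins with a RefSeq record, since a peak near a hairpin can be nearest to another start. In that count 13, 4 and 6 of 43 NF-κB hairpins and 26, 12 and 20 of 44 epidermal hairpins had a peak within 10 kb. The epidermal shares are 59.1%, 27.3% and 45.5% and the NF-κB shares 30.2%, 9.30% and 14.0%, next to 19.5%, 10.4% and 14.6% of all 963 hairpins with a record. Members of a cluster share peaks, so the 26, 12 and 20 epidermal hairpins rest on 15, 7 and 12 different peaks, the 13, 4 and 6 NF-κB hairpins on 6, 2 and 4, and the 188, 100 and 141 hairpins of all microRNAs on 156, 90 and 120. How far clustering sets the difference in shares was not tested, and both lists were chosen with earlier results of these data known. The closest peak was assigned to a protein-coding gene for 5, 4 and 2 of these NF-κB hairpins and for 2, 2 and 2 of the epidermal ones. Mir155 and Mir21a, both known NF-κB targets, had no peak within 10 kb, with the closest adult peak at -92500 and 39260 bp.

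Many weak microRNA peaks were called in some of the lists, at shares near the background. Of 230 microRNA regions, 29.1% were in adult alone, 16.1% in adult and treated, and 10.9% in treated alone, next to 31.6%, 16.99% and 8.01% of all regions. Mir17 (3.07), Mir210 (2.94), Mir193a (3.62), Mir15a (3.18), Mir26a-2 (2.60), Mirlet7b (2.53) and Mir99a (3.95) had a peak as their own in adult alone. Mir100, Mir181c, Mir138-1 and Mirlet7c-1 had one in adult and treated, with 4.02 and 3.67, 3.39 and 2.60, 6.17 and 3.71, and 3.07 and 3.63. Mirlet7a-1 had one in treated alone, with 2.90. All but the adult Mir138-1 peak had a fold enrichment below 4.1, and a peak missing from a list says that it did not pass the caller's threshold there. Mir191 had a peak of its own in adult, with 2.89, while the closest peaks of control and treated, with 6.52 and 6.40, were assigned to the start of the protein-coding Ndufaf3.

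Well known lncRNAs had a peak about as often as lncRNAs at large. Of 64 annotated lncRNAs and other long-studied noncoding RNAs on a fixed list, 14 had a peak in any list (12 in adult, 8 in control and 12 in treated) and 7 in all 3. That is 21.9% of the listed genes, next to 20.3% of all lncRNA genes. A peak lay within 10 kb of the start for 11 of the 12 genes in adult, 7 of 8 in control and 11 of 12 in treated, where this held for 48.4%, 43.2% and 43.3% of all lncRNA genes with a peak. Neat1, the scaffold of nuclear paraspeckles, had 4 peaks in adult, 4 in control and 6 in treated. Its strongest region, chr19:5849755-5850454, had 7.16, 5.41 and 5.85 at -4668, -4635 and -4611 bp, and the peak over its start on the reverse strand had 3.66, 3.11 and 4.24. The region inside the transcript that holds its motif match had 4.36, 3.63 and 4.59 at 4085, 4104 and 4024 bp. A further shared region at -1436, -1384 and -1335 bp had 4.15, 2.94 and 4.496. Adult was the highest at the strongest of these 4 regions and treated at the others, and control was the lowest at all 4.

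Malat1, an abundant nuclear RNA of the speckles that hold splicing factors, had a shared region upstream with 4.52 in adult, 4.05 in control and 5.23 in treated at -7432, -7271 and -7392 bp. A peak nearer to its start was present in adult (3.08) and control (3.34) and not in treated. Dleu2, the host of Mir15a, had a region in an intron with 4.68, 4.48 and 4.71 and one at its start with 4.09, 2.68 and 2.81. The adult and treated peaks cover that start, and the control peak lies just upstream of it. The first of these differed little between lists. Terc, the RNA of telomerase, had 4.09, 3.32 and 3.09 at 317, 353 and 304 bp, and Rn7s2, a 7SL RNA of the signal recognition particle, had 4.02, 3.34 and 3.88, with the adult summit 392 bp from the control and 346 bp from the treated summit. Snhg8, Snhg15 and Snhg16, hosts of small nucleolar RNAs, had a peak within 1 kb of their start in adult (3.73, 3.08 and 2.90) and treated (3.53, 3.36 and 3.17) and none in control. Trp53cor1, a p53-induced lncRNA next to Cdkn1a, had a peak in adult alone (3.06). Morrbid had a peak in treated alone, with 2.90 at 1078 bp, and so did Platr4, with 3.53 at -16528 bp.

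The strongest noncoding peaks besides those of microRNAs lay at lncRNAs known by clone or model names. F830208F22Rik had 17.2 in adult, 9.11 in control and 14.1 in treated at -3565 bp in adult, inside an intron of a protein-coding gene, and G630071F17Rik had 12.1, 15.2 and 13.1 at -14225 bp in adult. 4831407H17Rik had 16.0 in adult, 18.1 in control and 15.5 in treated, in an intron of Cacna1d and 6711 bp from its start in adult. Gm39859 had 16.2, 14.9 and 16.7 at 33579 bp in adult. Gm10789 had 15.3, 16.3 and 14.5 at -29197 bp in adult, so these regions, chosen as the strongest of a list, were strong in every list. Gm36732, in whose intron the peak lies, had 16.3, 12.7 and 14.0, with the AP-1 gene Fosl2 as the nearest protein-coding start at 46884 bp. 1700007F19Rik had 15.0, 10.4 and 15.0 at 41031 bp in adult. The strongest peak of 4930578M01Rik lay over its own start, with 13.9, 9.38 and 15.0 at -147 bp in adult and -125 bp in treated. Among pseudogenes Gm15772 was the strongest in adult, with 10.3, 8.14 and 11.2. Its region at chr5:3151933-3152661 lies away from the gene at chr5:3236390-3236928. Serpina3h, of a serpin cluster, was the strongest in the other lists, with 9.45, 9.60 and 11.6 at -345 bp in adult. Snord83b, a small nucleolar RNA, had the strongest peak of the remaining small RNAs, with 8.12, 7.11 and 8.45. That region, chr15:80061058-80061687, also lies away from its gene at chr15:80078503-80078579.

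A few noncoding genes gathered many peaks. Gm14321 was nearest to 8 peaks in adult, 4 in control and 6 in treated, and Gm13219 to 7, 4 and 7. Of the 785, 469 and 643 noncoding genes with a peak, 237, 100 and 154 had at least 2.

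Sharing between lists, counted by overlap, followed the background of all peaks. Of 1189 adult noncoding peaks, 573 overlapped a control peak by at least 1 bp (48.2%, 45.4 to 51.0), where 45.5% of all adult peaks did. With equal numbers of peaks per list these shares were 79.2% and 75.5%. In treated 743 of them had an overlapping peak (62.5%), against 60.4% of all adult peaks. Of 618 control noncoding peaks, 574 overlapped an adult peak (92.9%, background 93.3%) and 532 a treated peak (86.1%, background 86.6%). Of 881 treated noncoding peaks, 751 overlapped an adult peak (85.2%, background 85.6%) and 534 a control peak (60.6%, background 59.9%). Each of the 6 shares over the full lists was within 3 percentage points of its background, so these counts are no result about noncoding genes. Each list shared more noncoding peaks with the larger of the other two.

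Near starts noncoding and protein-coding shares were apart in 2 of the 6 pairings. Of noncoding adult peaks within 1 kb of their start, 106 of 212 overlapped a control peak (interval 43.3 to 56.7%), against 1176 of 2934 protein-coding peaks within 1 kb (40.1%, 38.3 to 41.9). Of treated noncoding peaks within 1 kb, 135 of 144 overlapped an adult peak (93.8%, 88.5 to 96.7), against 1623 of 1882 (86.2%, 84.6 to 87.7). In the other 4 pairings within 1 kb the intervals overlapped, with 62.7% and 55.2% for adult in treated, 96.4% and 93.1% for control in adult, 83.9% and 84.5% for control in treated, and 65.3% and 56.9% for treated in control. Beyond 1 kb they overlapped in all 6. No test was run, since peaks of 1 list are not replicates.

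Stronger noncoding peaks were shared more often. In the lowest decile of the adult list by fold enrichment, 18 of 97 noncoding peaks overlapped a control peak, and in the highest decile 113 of 113 did. The numbers for protein-coding peaks were 96 of 756 and 739 of 739. For treated noncoding peaks found in control they were 24 of 73 and 90 of 90.

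**Figure D4:**
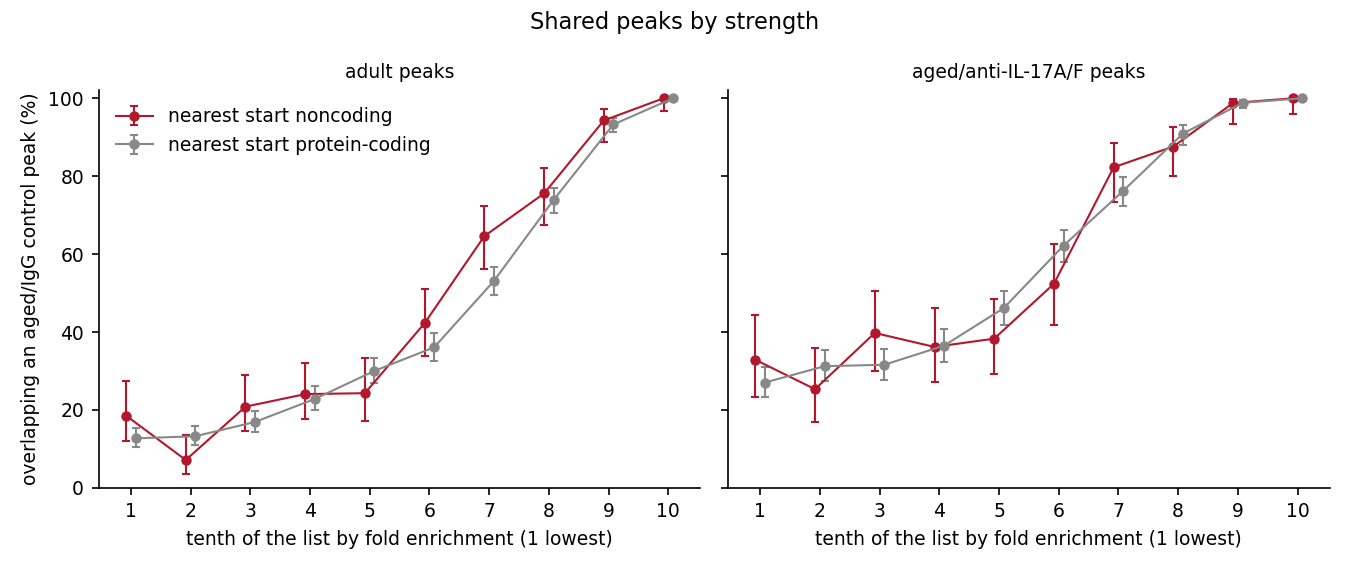
Share of adult (left) and treated (right) peaks that overlap a control peak, in percent, by decile of the list from lowest (1) to highest (10) fold enrichment, with 95% Wilson intervals. Noncoding peaks (red) rise with protein-coding peaks (grey), from 18 of 97 to 113 of 113 noncoding peaks in adult.

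Merging overlapping peaks of the 3 lists gave 1356 noncoding regions. Of these 525 (38.7%) were present in all lists, against 3486 of all 9513 regions (36.6%), and 391 were in adult alone (28.8%), 115 in treated alone (8.48%) and 29 in control alone (2.14%). Over all regions these shares were 31.6%, 8.01% and 1.84%. Another 226 were shared by adult and treated (16.7%), 55 by adult and control (4.06%), and 15 by the aged lists (1.11%), next to 16.99%, 3.91% and 1.05% of all regions, so the noncoding classes lay close to this background. The median of the highest fold enrichment was 5.42 for regions in all lists and 3.07, 3.10 and 3.06 for those in adult, treated or control alone. By gene, 414 of 868 noncoding genes had a peak in all lists (47.7%), next to 2388 of 5275 protein-coding genes (45.3%).

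One strong noncoding region went against this pattern. B230209E15Rik, a lncRNA on chromosome 7, was the nearest gene of a peak at chr7:61481063-61481538 with 6.25 in control and 7.56 in treated. A second peak at chr7:61514740-61515245 had 3.41 and 4.67, while adult had no peak at either. Both regions are intergenic. The first lay 134049 bp from the start of the gene in control and 134023 bp in treated, and the second 100323 and 100334 bp. Both regions held the motif in both lists. Of all peaks, 6.69% in control and 14.4% in treated had no overlapping adult peak. The closest adult peak lay 2274 kb from the first. Both regions fall in a gap of 7.91 Mb between neighbouring adult peaks, and 20 adult gaps, this one included, were at least as long. Among the strongest decile of the treated list, the first peak was the only 1 of 90 noncoding peaks without an overlapping adult peak, and 0 of 512 protein-coding peaks lacked one.

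The strongest unshared noncoding peaks of the other genes were weaker than the treated peak of this one. Without an overlapping control peak were 54.5% of all adult peaks and 40.1% of all treated peaks, without a treated peak 39.6% of adult and 13.4% of control peaks, and without an adult peak 14.4% of treated peaks. Adult peaks without a control peak were led by Mir138-1 (6.17) and Gm19557 (6.02), and those without a treated peak by Gm41177 (6.66) and 1110019D14Rik (5.48). Treated peaks without a control peak were led by Mir7237 (5.80) and Gm15412 (5.23), both of which had an adult peak, with 5.11 and 5.28. Control peaks without a treated peak were led by Gm17546 (4.13), with 1700064J06Rik and Gm41177 next (both 4.05). After B230209E15Rik, those without an adult peak were led by Mir6926 in control (4.48) and 4930447J18Rik in treated (4.88). Some of these genes were only the nearest start, with the peak at 81007 bp for 1110019D14Rik, -107284 bp for Gm15412 and 93445 bp for 4930447J18Rik. Others were closer, such as Gm17546 at -151 bp and Mir6926 at -3116 bp. Of the regions named here, those of Mir7237, Gm15412, Mir138-1 and Gm19557 were thus called in adult and treated and not in control, the smallest list.

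The NF-κB consensus motif was far more frequent under noncoding summits than beside them. The motif has 10 bases, and both strands were searched within 100 bp of the summit. It was present in 373 of 1189 noncoding peaks in adult (31.4%, 28.8 to 34.1), 247 of 618 in control (39.97%, 36.2 to 43.9) and 333 of 881 in treated (37.8%, 34.7 to 41.0). Windows of the same length 2000 bp to either side held it in 2.61%, 2.83% and 2.55%, and it was present in 1480 of 32851 RefSeq promoters of 300 bases (4.51%). The shares at protein-coding genes were 28.0%, 37.4% and 34.4%. With equal numbers of peaks per list the noncoding shares were 44.4% in adult, 39.97% in control and 44.4% in treated. Control was then the lowest and not the highest.

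The difference from protein-coding peaks shrank at equal distance from a start. Beyond 1 kb the motif was in 33.4% of noncoding and 31.9% of protein-coding peaks in adult, 42.1% and 40.4% in control, and 39.5% and 38.4% in treated. Within 1 kb it was in 22.2% and 22.2%, 30.4% and 32.0%, and 29.2% and 27.5%. The intervals overlapped in each of these pairs. At microRNA genes alone it was in 34.2%, 39.6% and 39.7% of peaks.

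Motif content went with strength and with sharing. In the lowest decile by fold enrichment 7 of 97, 11 of 48 and 9 of 73 noncoding peaks had the motif, and in the highest decile 66 of 113 (58.4%), 40 of 63 (63.5%) and 57 of 90 (63.3%). Noncoding peaks in all 3 lists had it in 44.4%, 43.9% and 44.3%, where all peaks of the same deciles would give 40.4%, 40.4% and 42.3%. Those in 1 list alone had it in 66 of 391 for adult (16.9%), 4 of 29 for control (13.8%) and 34 of 115 for treated (29.6%, 21.99 to 38.5). Here all peaks of the same deciles would give 18.1%, 25.5% and 25.2%.

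**Figure D5:**
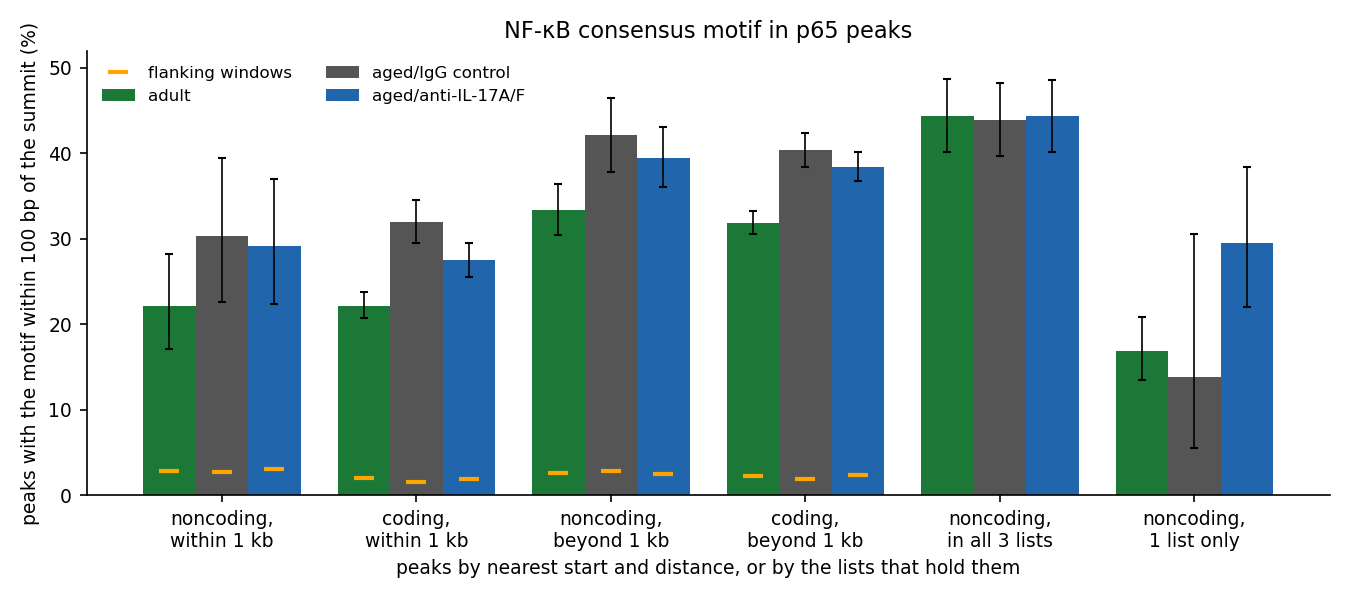
Percent of peaks with the NF-κB consensus motif within 100 bp of the summit, by nearest start, distance and the lists that hold the peak, for adult (green), control (grey) and treated (blue), with 95% Wilson intervals and, for the first 4 groups, orange marks for flanking windows. Noncoding peaks in all lists reach 44.4%, 43.9% and 44.3%, and those in adult alone 16.9%.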

How the data were processed

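p65 ChIP–seq peak lists of 3 pools of 4 mice were analysed, and the 3 input libraries were not analysed here. Per the study's methods and the submitters' processing notes, reads were trimmed (Trimmomatic 0.36), aligned to mm10, merged, deduplicated and downsampled to the same number of reads per pool, and peaks were called on the pool with MACS2 at q 0.01. Whether inputs entered the calling is not stated. The deposited lists give for each peak a score, a fold enrichment (a ratio), and the −log10 of its p-value and q-value. The lists hold no read counts per peak. Each peak midpoint was assigned to the nearest curated RefSeq start (GRCm38.p6, the mm10 assembly), ties going to protein-coding genes. Overlap meant 1 bp. The 48 microRNA genes without a Mir symbol were counted with other small RNAs. Motifs were read with pysam 0.24.0, and shares have 95% Wilson intervals (scipy 1.17.1) that cover counting error only. With 1 list per condition there was no test. Named genes were the 12 strongest microRNA genes within 10 kb in all lists, the 5 strongest noncoding peaks per list and the strongest of each kind, listed genes with a peak, and the 2 strongest unshared peaks per pairing. Genes in the peak maps and the printed windows were picked among these after their values were seen. Members and lists were chosen with earlier results of these data known. Distances, overlaps and motif search were tested on simulated data.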

Additional observations from a re-analysis of the deposited data

How the results depend on the processing

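Adding predicted transcripts to the curated ones raised noncoding peaks to 2331 in adult, 1208 in control and 1732 in treated (27.3%, 29.0% and 28.8% of each list), with lncRNAs at 87.3%, 87.2% and 87.4%, microRNAs at 5.11%, 5.30% and 5.08%, other RNAs at 6.22%, 6.29% and 6.00% and pseudogenes at 1.37%, 1.24% and 1.501% of them, and 5.92%, 5.71% and 5.43% within 1 kb of a coding start. How many peaks count as noncoding thus depends on the annotation. Giving a coding start within 1 kb precedence left 12.9%, 13.7% and 13.6%. With −log10 q of at least 10, overlap was 52.7% (adult in control), 65.8% (adult in treated), 95.1% (control in adult) and 88.9% (control in treated), the motif was in 39.0%, 47.2% and 44.5%, and 5.58% of adult peaks were near a coding start. With the strongest 4169 peaks of each list, adult kept 590 noncoding peaks, of which 15.6% lay within 1 kb of their start and 5.25% of a coding start. The 6 overlaps then came to 79.2% and 81.2% (adult in control and in treated), 76.2% and 75.7% (control in adult and in treated) and 77.0% and 74.4% (treated in adult and in control), and the motif was in 44.4% for both adult and treated. Requiring overlap of 50% of both peaks gave 88.4% (control in adult), 82.7% (control in treated) and 82.0% (treated in adult). If the adult and treated labels were exchanged, the overlaps would be 60.6%, 85.2%, 86.1%, 92.9%, 62.5% and 48.2% in the order adult in control, adult in treated, control in adult, control in treated, treated in adult and treated in control. The motif within 50 bp was in 25.1%, 30.3% and 29.5%, and anywhere in the peak in 37.5%, 46.6% and 44.3%. Of the other 146 of 204 values, 126 shares stayed within their interval and 20 counts within a factor of 1.5, including all of those with −log10 q of at least 5, with summits in place of midpoints, and with the summit inside the other peak. No paired analysis was possible because each condition has 1 pooled peak list and no test was run. A peak absent from a list may lie just under the caller's threshold.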

Other observations

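The cluster of Mir200a, Mir200b and Mir429, microRNAs that maintain epithelial identity, had its closest peak at the start of the lncRNA Gm13648, with a fold enrichment of 3.25 in adult and 3.01 in treated, while the closest control peak lay 22943 bp downstream of Mir200a. Mir205, another abundant epidermal microRNA, had its closest peak at -40184 bp in adult, -40198 bp in control and -40195 bp in treated, assigned to Mir205hg, with 4.09, 3.20 and 3.37. Mir15b and Mir16-2 had their closest peak in each list assigned to the protein-coding Smc4. For Mir15b it had 3.19 at -3880 bp in adult, 2.63 at -4921 bp in control and 5.15 at -4883 bp in treated. The adult midpoint lay apart from those of the other lists, and whether these values belong to a single site was not tested.

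The peaks assigned to Mir365-2 lay far downstream, the nearer of them with 7.14 in adult, 6.18 in control and 6.14 in treated at 54965, 54944 and 54958 bp, while adult had a closer peak at -15204 bp (3.62) that was assigned to Mir193a. Mirlet7i had a peak in each list close to its hairpin, at -608, -438 and -476 bp with 2.48, 2.91 and 2.87 and summits up to 348 bp apart, and adult had a further one at 96 bp with 3.95. Mir29b-1 had a region shared by the lists at -16701, -16724 and -16692 bp with 3.64, 3.65 and 2.98, and treated alone had a peak at -2532 bp with 4.13. Pvt1, a lncRNA next to Myc, had a peak in adult (3.40) and a separate one in control (3.06), both inside its transcript.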
